A study of Saccharomyces cerevisiae BY4741 with 4 samples.

Results

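From the 7382 annotated features of the deposited table, 5 genes of nuclear polyadenylation were chosen by their systematic names. They encode the poly(A) polymerases PAP1 (YKR002W), PAP2 (YOL115W) and TRF5 (YNL299W) and the nuclear poly(A)-binding proteins NAB2 (YGL122C) and HRP1 (YOL123W). All 5 had a row of their own, all 5 passed the filter on low counts, and 0 of the 622 rows with joined names, which hold reads of overlapping features, contained any of them. The samples came from wild-type BY4741, a haploid laboratory strain of Saccharomyces cerevisiae that carries auxotrophic deletions, grown in YPD medium at 30 °C and harvested in exponential growth at an optical density of 0.6. There were 2 groups of 2 biological replicates, total RNA and poly(A) RNA, and no mutant or treatment. Oligo-dT beads were used to capture the poly(A) RNA, and a kit then removed leftover rRNA.

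Nearly every yeast mRNA receives its poly(A) tail from Pap1, which acts within the cleavage and polyadenylation factor once the transcript has been cut. Hrp1, also called cleavage factor IB, binds UA-rich sequence near the end of the transcript and helps to place the cut, while Nab2 binds the new tail, limits its length and travels with the mRNA to the nuclear pore. Pap2, also called Trf4, and its paralog Trf5 are non-canonical poly(A) polymerases of the TRAMP complexes, which add short tails that mark nuclear RNA for trimming or destruction by the exosome. Levels here are shares of a library and give no amount per cell, and in bulk RNA fewer cells holding an mRNA and less of it per cell cannot be told apart.

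The sequences shown here bear on capture by oligo-dT (runs of A), on the end of the transcript or on the assignment of reads, and come from the RefSeq reference of build R64. The NAB2 protein is known to restrain its own mRNA through a run of A beyond its stop codon. That run was present in the reference, and it is shown in capitals on the NAB2 strand, at chrVII:278778-278807 on the minus strand.

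NAB2 A run: ttAAAAAAAAAAAAAAAAAAAAAAAAAAgt

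It holds 26 A in a row and begins 141 bases after the stop codon. Among 5866 nuclear reading frames, 7 (0.119%) had a run at least as long within 300 bases after the stop codon on the sense strand, where the median of the longest run was 5. The other 4 members had runs of 3 to 7 in that window. Of all reading frames, 5.08% had 12 or more A in a row there on the sense strand, and 6.04% on the other strand.

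PAP2 had the longest run inside a coding sequence, at chrXV:102248-102277 on the plus strand, again in capitals.

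PAP2 A run: aagccatttAAAAAAAAAAAAtttggcaac

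This run of 12 begins at coding base 783, and 0.392% of reading frames hold a coding run of that length or longer. The longest coding runs of the others were 6 to 8.

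HRP1 was the only member with the letters TATATA, which read the same on both strands, within 300 bases after its stop codon. The motif is the core of the efficiency element that Hrp1 protein binds in RNA. It is shown in capitals at chrXV:89524-89553 on the plus strand.

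HRP1 TATATA: agcaatttataaTATATAtatacatgtacg

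The HRP1 window had 3 overlapping matches, the first starting 88 bases after the stop codon. The same 6 letters occurred in 56.2% of all such windows, so the match after HRP1 is of a common kind, and the letters were absent from the windows of the other 4 members. A match or its lack describes letters in this window and no more. Past 87 bases the PAP2 window ran into the neighbouring gene PTH4, and past 243 bases the HRP1 window ran into SMF1. The same windows were used for the A runs after the stop codon.

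The paralogs PAP2 and TRF5 were 66.9% identical over 1681 aligned coding positions. Their longest identical stretch, 20 bases in capitals below, is shorter than the 50-base reads. It lies at chrXV:102607-102666 in PAP2 and chrXIV:67640-67699 in TRF5, both on the plus strand.

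PAP2 paralog stretch: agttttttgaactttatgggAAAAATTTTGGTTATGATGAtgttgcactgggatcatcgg

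TRF5 paralog stretch: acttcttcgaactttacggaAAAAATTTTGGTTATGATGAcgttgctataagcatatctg

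Of the 50-base stretches of PAP1, PAP2, TRF5 and HRP1, 0 occurred a second time in the genome on either strand. NAB2 had 63 such stretches of 1529 (4.12%), and all 63 were repeated inside NAB2 itself, between coding bases 361 and 472, where a 12-base unit encoding part of its glutamine-rich region recurs in tandem. Reads from there still fall on NAB2 or, if reads with several matches were dropped, are missing from its count. The start of that tract is at chrVII:280140-280163 on the minus strand, with the first unit in capitals.

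NAB2 tandem repeat: CAACAGCAACCTcaacagcaacct

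The genes lie apart from each other and from annotated neighbours. PAP1 spans 443232 to 444938 on chromosome XI, PAP2 101475 to 103229 and HRP1 87844 to 89448 on chromosome XV, TRF5 66517 to 68445 on chromosome XIV, and NAB2 278946 to 280523 on chromosome VII. Each is a single uninterrupted reading frame, of 1707 bp in PAP1, 1755 bp in PAP2, 1929 bp in TRF5, 1578 bp in NAB2 and 1605 bp in HRP1. No annotated gene overlapped any of them (0 for each). The nearest gene downstream was PTH4, 87 bases past PAP2 on the opposite strand. Use of strand in the counting was not given in the sources used here, so reads from unannotated antisense RNA could not be told apart from the mRNA.

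The libraries held 52851542 to 75955489 counts. Nuclear protein-coding features made up 3.14% and 3.15% of the counts in total RNA replicates 1 and 2 and 99.8% in both poly(A) libraries. The depth of the total RNA libraries on mRNA therefore limits every comparison of the fractions. The 5 genes together had 884 and 1339 counts in total RNA and 34951 and 34803 in the poly(A) fraction. STE2, the receptor made in cells of mating type a, had 1308 and 1961 counts in total RNA and 57429 and 62048 in the poly(A) fraction, while the receptor of the opposite mating type, STE3, had 5, 6, 302 and 326. The other a-cell markers counted, BAR1 and STE6, had 582 and 873 and 1018 and 1433 counts in total RNA. SAG1, a marker of the opposite mating type, was not near absent, with 70 and 117 counts in total RNA and 1287 and 1309 in the poly(A) fraction. The planned markers MFA1 and MFA2 of a cells and MF(ALPHA)1 and MF(ALPHA)2 of the opposite mating type were not counted here. MF(ALPHA)1 passed the filter on low counts, so the markers shown are a part of those planned. BY4741 is of mating type a.

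The first question was how abundant each mRNA was within a fraction. The binding proteins were the abundant pair and the polymerases lay near or below the typical gene. Levels were expressed as counts per kb of coding length per 1000000 nuclear coding counts, on which length-scaled measure the median reading frame stood at 36.5 in total RNA and 43.0 in the poly(A) fraction.

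NAB2 had the highest level of the 5 in both fractions. Its raw counts were 345 and 577 in total RNA and 13627 and 12703 in the poly(A) fraction. Its level was 129.4 and 153.0 in total RNA replicates 1 and 2 and 163.8 and 151.7 in the poly(A) replicates. The ranges of the fractions overlapped. The mean level was 141.2 ± 16.7 and 157.7 ± 8.51 (SD, n = 2 each) for total and poly(A) RNA, above 84.7% and 82.2% of the 5866 reading frames.

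HRP1, its partner among nuclear mRNA-binding proteins, came next. Its counts were 272 and 402 in total RNA and 11326 and 11721 in the poly(A) fraction. Its level was 100.3 and 104.8 in total RNA and 133.8 and 137.6 in the poly(A) fraction, so the poly(A) libraries were the higher ones on this scale. The means were 102.6 ± 3.19 and 135.7 ± 2.70 (SD, n = 2 each). Both lay at the 79.5th percentile of reading frames, and the levels of NAB2 and HRP1 did not overlap within either fraction.

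PAP1, the canonical polymerase, was a gene of middling abundance. It had 117 and 171 counts in total RNA and 3941 and 3471 in the poly(A) fraction. Its level was 40.6 (95% Wilson interval 33.9 to 48.6) and 41.9 (36.1 to 48.7) in total RNA and 43.8 and 38.3 in the poly(A) fraction, so the fractions overlapped. The means of PAP1, 41.3 ± 0.956 and 41.1 ± 3.86 (SD, n = 2 each), placed it at the 54.5th percentile in total RNA and the 48.6th in the poly(A) fraction. HRP1 stood 2.49-fold above PAP1 in total RNA and 3.31-fold above it in the poly(A) fraction.

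PAP2, the polymerase of the main TRAMP complex, had 79 and 107 counts in total RNA and 3347 and 3614 in the poly(A) fraction. Its level was 26.6 (interval 21.4 to 33.2) and 25.5 (21.1 to 30.8) in total RNA and 36.2 and 38.8 in the poly(A) fraction. Both poly(A) values lay above both total RNA values and above their counting intervals. PAP2 was below PAP1 in both total RNA libraries, but its poly(A) values overlapped those of PAP1, so the order of these neighbours was not settled there.

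TRF5 had the lowest level of the 5 in every library, although its counting intervals overlapped those of PAP2 in both total RNA libraries. It had 71 and 82 counts in total RNA and 2710 and 3294 in the poly(A) fraction. Its level was 21.8 (interval 17.3 to 27.5) and 17.8 (14.3 to 22.1) in total RNA and 26.6 and 32.2 in the poly(A) fraction. Its means, 19.8 ± 2.83 and 29.4 ± 3.92 (SD, n = 2 each), lay at the 29.2nd and 37.6th percentiles. The fractions did not overlap, but the counting interval of total RNA replicate 1 reached into the lower poly(A) value. All these intervals cover counting error only, since reads copied by PCR and carrying no molecular identifiers do not each stand for a molecule.

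**Figure D1:**
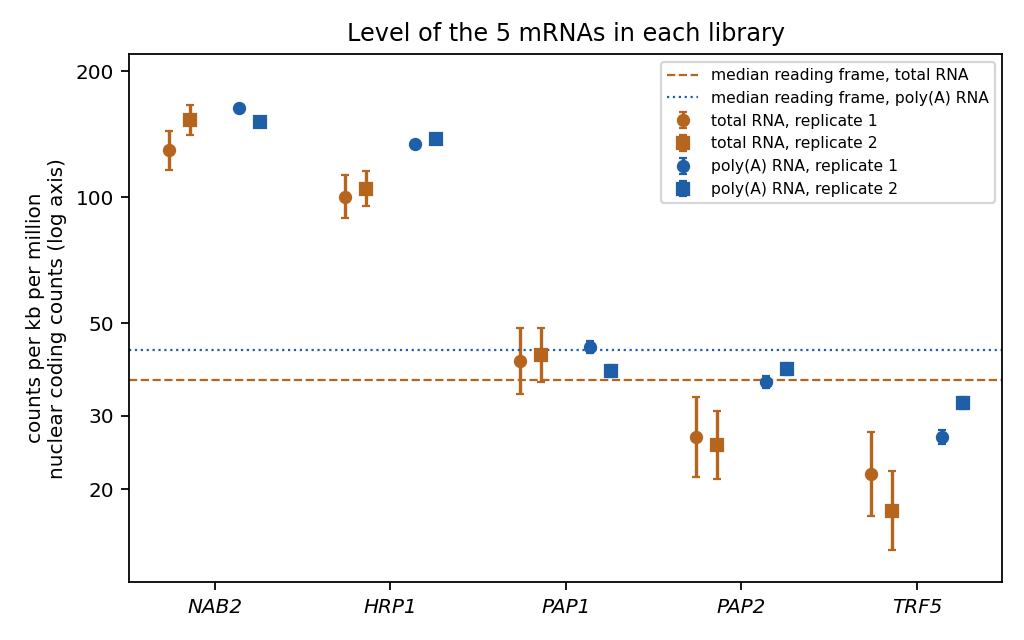
Level of each mRNA in each of the 4 libraries, in counts per kb of coding length per 1000000 nuclear coding counts on a log axis. Points are single libraries, bars are 95% Wilson counting intervals, and horizontal lines mark the median of 5866 reading frames. NAB2 and HRP1 sit between 100.3 and 163.8, and the 3 polymerases between 17.8 and 43.8.

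Replicates of a fraction agreed less well for some members than for others. In poly(A) RNA, TRF5 was higher in replicate 2 by 0.27 on the log2 scale, a larger gap than in 95.8% of 3927 reading frames of like count (mean count from 0.5 times the lowest member's to 2 times the highest member's). PAP1 moved the other way, by -0.19, which exceeded 89.4% of those genes, and HRP1 moved by 0.041. In total RNA the largest replicate gap among the members was that of TRF5, at -0.29, where the SD over 3978 genes of like count was 0.25.

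Ratios between members inside a library do not depend on how libraries are scaled. The ratio of PAP1 to PAP2, per kb, was 1.52 (95% exact interval 1.13 to 2.05) and 1.64 (1.28 to 2.11) in total RNA and 1.21 (1.16 to 1.27) and 0.987 (0.942 to 1.03) in the poly(A) fraction. Both poly(A) ratios were the lower ones, although the first total RNA interval held the first poly(A) ratio. The ratio of PAP1 to TRF5 was 1.86 and 2.36 in total RNA and 1.64 and 1.19 in the poly(A) fraction, again without overlap, although the interval of the first total RNA ratio (1.38 to 2.54) held the first poly(A) ratio.

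The TRAMP polymerases kept closer to each other. The ratio of PAP2 to TRF5 was 1.22 and 1.43 in total RNA and 1.36 and 1.21 in the poly(A) fraction, and the fractions overlapped. The interval of the first total RNA ratio (0.876 to 1.71) spanned 1, so the order of PAP2 and TRF5 was not settled in that library. NAB2 to HRP1 was 1.29 and 1.46 in total RNA and 1.22 and 1.10 in the poly(A) fraction, so NAB2 led in all 4 libraries. Both poly(A) ratios were the lower ones, although the interval of the first total RNA ratio (1.10 to 1.52) held both. The summed level of the binding proteins over that of the polymerases was 2.58 and 3.03 in total RNA and 2.79 and 2.65 in the poly(A) fraction, with overlap. For the ratios whose fractions did not overlap, the exact two-sided permutation p was 0.333, the smallest that 2 against 2 libraries allow.

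**Figure D2:**
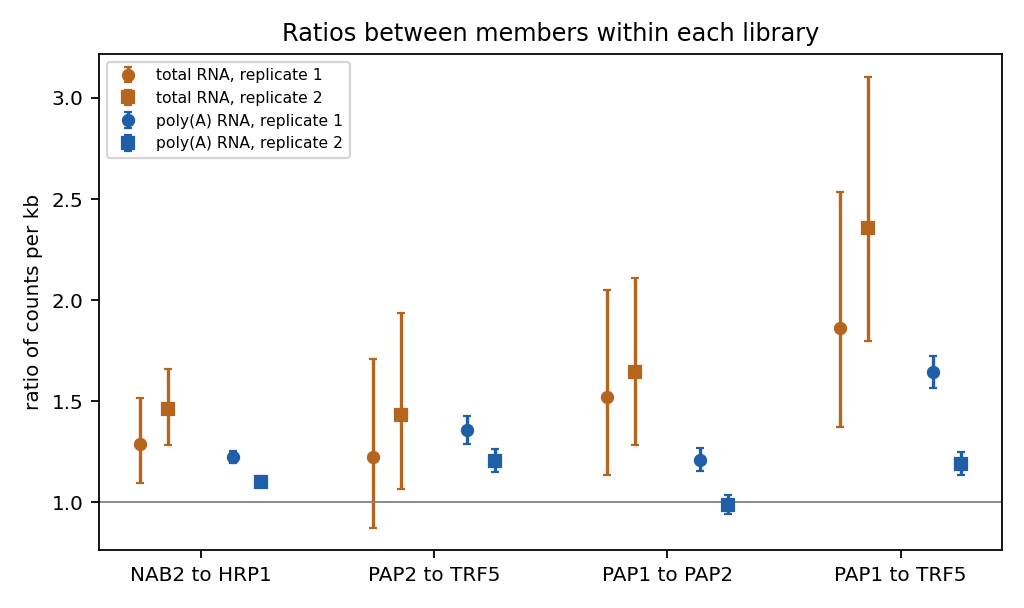
Ratios of counts per kb between pairs of members within each library, with 95% exact counting intervals. The line marks equal levels. PAP1 to PAP2 is 1.52 and 1.64 in total RNA and 1.21 and 0.987 in the poly(A) fraction, while PAP2 to TRF5 overlaps between fractions.

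The second question was whether an mRNA had the same relative abundance in the poly(A) fraction as in total RNA. In edgeR's quasi-likelihood test, 1 of the 5 members passed at an adjusted p under 0.05, against 62.2% of the 6945 features tested (31.0% in the higher and 31.2% in the lower direction). Of all calls, 49.9% were higher under TMM, 67.1% under the nuclear coding sum and 98.9% under library totals. The fold changes of the members were small, from -0.33 to 0.27 on the log2 scale, beside a median of 0.044 over all features tested. Values below are in TMM-normalised CPM, which puts each library on the scale of its typical feature.

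PAP1 fell under TMM scaling, but had 4.98 on the log2 scale under library totals, which also carry the loss of rRNA. It measured 13.4 and 14.4 normalised CPM in total RNA and 11.9 and 10.3 in the poly(A) fraction, so both poly(A) libraries were the lower ones. Its log2 fold change was -0.33 (SE 0.12, 95% interval -0.58 to -0.083, adjusted p = 0.0204), but it was -0.0097 (adjusted p = 0.945) when libraries were scaled to the nuclear coding sum. The call was also lost without total RNA replicate 2 (-0.27) and without poly(A) replicate 2 (-0.22).

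NAB2 measured 39.6 and 48.8 normalised CPM in total RNA and 41.2 and 37.7 in the poly(A) fraction, with overlap. Its log2 fold change was -0.17 (SE 0.097, interval -0.37 to 0.031, adjusted p = 0.132) under TMM and 0.15 under the coding sum. It passed with a replicate block (-0.18, adjusted p = 0.0299) and without total RNA replicate 1 (-0.30), and it was -0.00040 without total RNA replicate 2.

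HRP1 measured 31.2 and 34.0 normalised CPM in total RNA and 34.3 and 34.8 in the poly(A) fraction. Its log2 fold change was 0.079 (SE 0.091, interval -0.11 to 0.27, adjusted p = 0.47), the closest to 0 of the members. Under the coding sum HRP1 rose by 0.40 (adjusted p = 0.000583).

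The TRAMP polymerases had values above 0 that did not pass. PAP2 measured 9.07 and 9.04 normalised CPM in total RNA and 10.1 and 10.7 in the poly(A) fraction, a log2 fold change of 0.20 (SE 0.12, interval -0.054 to 0.46, adjusted p = 0.162). TRF5 measured 8.15 and 6.93 in total RNA and 8.20 and 9.78 in the poly(A) fraction, a log2 fold change of 0.27 (SE 0.15, interval -0.040 to 0.58, adjusted p = 0.123). Both rose under the coding sum, PAP2 by 0.53 and TRF5 by 0.59, and TRF5 also passed without poly(A) replicate 1 (0.43). The normalised values of 4 of the 5 members did not overlap between fractions, as was so for 81.1% of all features tested.

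Where zero lay depended on the scaling, whereas the order of the members did not. The coding sum moved the median of all features by 0.32 and library totals without TMM moved it by 5.29. Relative to that median, PAP1 stood at -0.38 under TMM, -0.38 under the coding sum and -0.36 under library totals. The corresponding values were -0.22, -0.22 and -0.20 for NAB2, 0.035, 0.035 and 0.052 for HRP1, 0.16, 0.16 and 0.18 for PAP2, and 0.22, 0.22 and 0.24 for TRF5.

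Fold changes across the transcriptome moved with coding length, and the members fell in a narrow span of it, from 1578 to 1929 bp, longer than 65.7% to 76.7% of reading frames. The 654 tested reading frames in that span had a median log2 fold change of -0.20, against 0.40 for the 3760 shorter ones and -0.73 for the 1358 longer ones. In the span 56.4% were called, 86 higher and 283 lower. PAP1 lay above 278 of the 654, NAB2 above 338, HRP1 above 464, PAP2 above 515 and TRF5 above 538. With a lowess trend on length removed, the members stood at -0.15 for PAP1, -0.080 for NAB2, 0.19 for HRP1, 0.42 for PAP2 and 0.57 for TRF5. The part of length in the fold changes of single members was not tested.

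**Figure D3:**
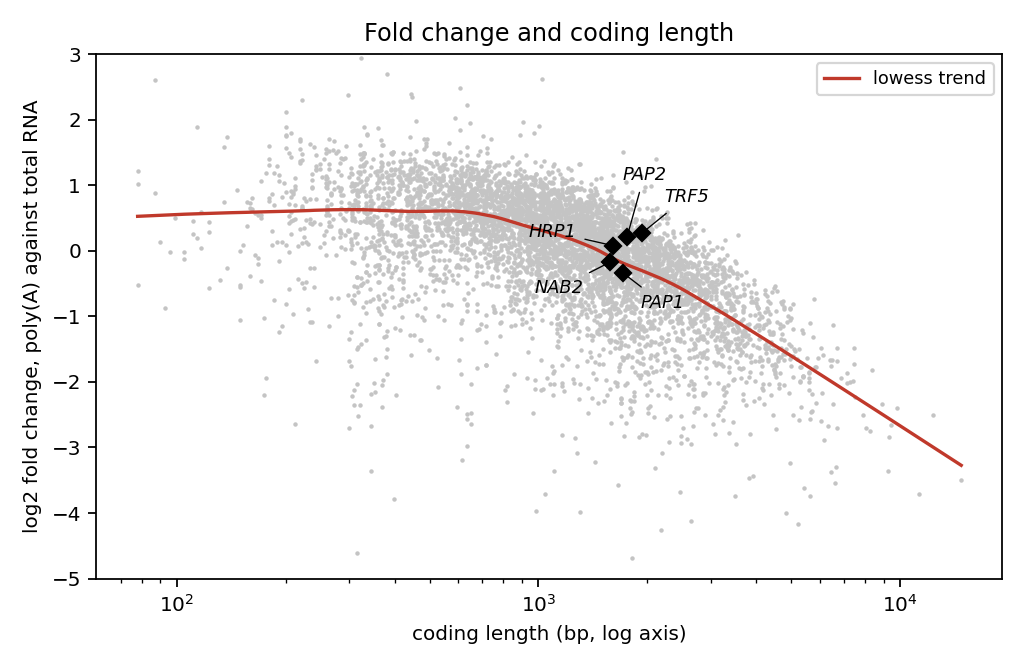
Log2 fold change of poly(A) against total RNA under TMM scaling, plotted against coding length in bp on a log axis, for tested nuclear reading frames (grey points; 43 lie outside the plotted range). Diamonds are the 5 members and the line is the lowess trend. Between 1578 and 1929 bp, PAP1 and NAB2 lie just under the line and HRP1, PAP2 and TRF5 above it.

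A-runs and the UA-rich motif, the sequence features shown above, split the tested reading frames into groups with medians close to each other. The 295 with 12 or more A in a row after the stop codon had a median log2 fold change of 0.057 and the other 5477 one of 0.075. The 7 with a run of at least 26, NAB2 among them, spread from -0.59 to 0.64, too few to set a median beside the rest. The 20 with 12 or more A in a row in the coding sequence, PAP2 among them, had a median of 0.18, against 0.073 for the other 5752. The 3266 with TATATA after the stop codon had 0.099 and the 2506 without it 0.030.

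The partners of these proteins had log2 fold changes from -2.83 to 1.41 and coding lengths from 555 to 6696 bp. Of 51 genes in 7 lists of connected complexes, all tested, 21 were higher in the poly(A) fraction, 16 were lower and 14 did not pass. Their median log2 fold change was 0.24. Across the 6945 features as a whole, 31.0% rose and 31.2% fell, and the middle value was 0.044. Under the coding sum the split was 31 higher and 11 lower, beside 3131 and 1535 of the 6945 features. Under library totals all 51 were higher, so the lower calls below hold for TMM and, where stated, for the coding sum.

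The cleavage and polyadenylation factor, in which Pap1 works, had 4 of 14 subunit genes higher and 5 lower, with a median of -0.17 that was -0.042 without total RNA replicate 1. The coding sum gave 6 higher, 2 lower and a median of 0.16. Without poly(A) replicate 2, 3 were lower. CFT1, which encodes its largest subunit, had 220 and 338 counts in total RNA and 4352 and 4411 in the poly(A) fraction, and fell by 1.04 (SE 0.10, adjusted p = 7.91e-09). SSU72, a phosphatase of the C-terminal domain of RNA polymerase II, had 19 and 39 counts in total RNA and 1611 and 2038 in the poly(A) fraction, and rose by 0.96 (SE 0.22, adjusted p = 0.000609). CFT1 stayed lower (-0.72) and SSU72 higher (1.28) under the coding sum. With the length trend removed, CFT1, at 4074 bp, changed sign and stood at 0.25, and SSU72 stood at 0.36.

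Cleavage factor IA, which joins Hrp1 on the transcript, had 1 of 4 genes higher and 1 lower, a median of 0.28, and 3 higher and 0 lower under the coding sum. RNA14, its scaffold, rose by 0.46 (SE 0.10, adjusted p = 0.00065). CLP1 had 0.33 (SE 0.14) and did not pass, at an adjusted p of 0.0501, but passed without total RNA replicate 2 (0.56), when 3 of the 4 genes were higher, with a replicate block (adjusted p = 0.0467), with TMM over coding features (adjusted p = 0.0495) and under the coding sum (0.66). The gene called lower was PCF11, named here after its values were seen, and it lost its call without total RNA replicate 2 (-0.13), without poly(A) replicate 1 (-0.25) and without poly(A) replicate 2 (-0.30). PCF11 also lost it with DESeq2 (adjusted p = 0.0623), with no filter on low counts (adjusted p = 0.0557) and under the coding sum (0.019, adjusted p = 0.895).

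Among the TRAMP partners of Pap2 and Trf5, 1 of 3 genes was higher and 1 lower, with a median of 0.48 that was 0.31 without total RNA replicate 1 and 0.0030 without total RNA replicate 2. Under the coding sum 2 were higher and 1 lower. MTR4, the helicase that feeds RNA to the exosome, fell by 0.64 (SE 0.094, adjusted p = 4.86e-06) and had -0.32 under the coding sum. With the length trend removed, MTR4 changed sign and stood at 0.31. MTR4 was 3222 bp long and stood at 89.8 ± 10.4 in total RNA and 72.5 ± 4.75 in the poly(A) fraction (length-scaled level, SD, n = 2 each), above PAP2 and TRF5 in both fractions.

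Of 13 nuclear exosome genes, 8 rose and 1 fell (11 and 1 under the coding sum), and their median of 0.38 became 0.0093 once the length trend was removed. The same step gave medians of 0.036 for the cleavage and polyadenylation factor, 0.10 for cleavage factor IA and 0.21 for the TRAMP partners. It gave -1.18 for Nrd1-Nab3-Sen1, 0.35 for mRNP assembly and export and 0.083 for import and methylation. The part of length in these medians was not tested. CSL4 and RRP4, which encode proteins of the exosome cap, rose by 1.19 (SE 0.12, adjusted p = 1.04e-08) and 0.92 (SE 0.13, adjusted p = 1.71e-06). The median coding length of this list was 798 bp, well short of every member.

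All 3 genes of the Nrd1-Nab3-Sen1 complex, which ends short noncoding transcripts and passes them to TRAMP, were lower, with a median of -1.72, and all 3 were also lower under the coding sum. With the length trend removed, NRD1 stood at -2.63 and NAB3 at -1.18, whereas SEN1, at 6696 bp, stood at 0.57, above the trend for its length. NRD1 had 395 and 680 counts in total RNA and 2299 and 2559 in the poly(A) fraction. Its length-scaled level fell from 150.0 ± 20.8 to 26.6 ± 1.90 (SD, n = 2 each). Its log2 fold change was -2.83 (SE 0.11, adjusted p = 1.09e-15). NRD1 is 1728 bp long, inside the span of the members, and it stood beside NAB2 (141.2 ± 16.7) in total RNA and below PAP1 in the poly(A) fraction.

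Of 12 mRNP assembly and export genes, 7 rose and 4 fell (8 and 4 under the coding sum), and the median was 0.38. PAB1, the main cytoplasmic poly(A)-binding protein, had 1740 and 2804 counts in total RNA and 26891 and 26792 in the poly(A) fraction. It fell by 1.44 (SE 0.083, adjusted p = 1.69e-12), and it had -1.12 under the coding sum. PAB1, at 1734 bp, also lies in the members' span, and its level remained above that of NAB2, at 292.6 ± 2.04 against 157.7 ± 8.51 in poly(A) RNA. GFD1, whose product binds Nab2 and takes part in export at the pore, rose by 1.41 (SE 0.17, adjusted p = 2.64e-07).

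Of the pair that serve Nab2 and Hrp1 directly, KAP104, their import receptor, fell by 0.44 (SE 0.083, adjusted p = 8.06e-05), although under the coding sum it had -0.12 (adjusted p = 0.181) and was not called. With the length trend removed, KAP104, at 2757 bp, changed sign and stood at 0.28. HMT1, the arginine methyltransferase that modifies both proteins, named here after its values were seen, had 0.18 (adjusted p = 0.0776) and did not pass, so 0 of the 2 genes were higher and 1 lower. HMT1 passed without poly(A) replicate 1 (0.25), with a replicate block (0.18) and under the coding sum (0.50).

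**Figure D4:**
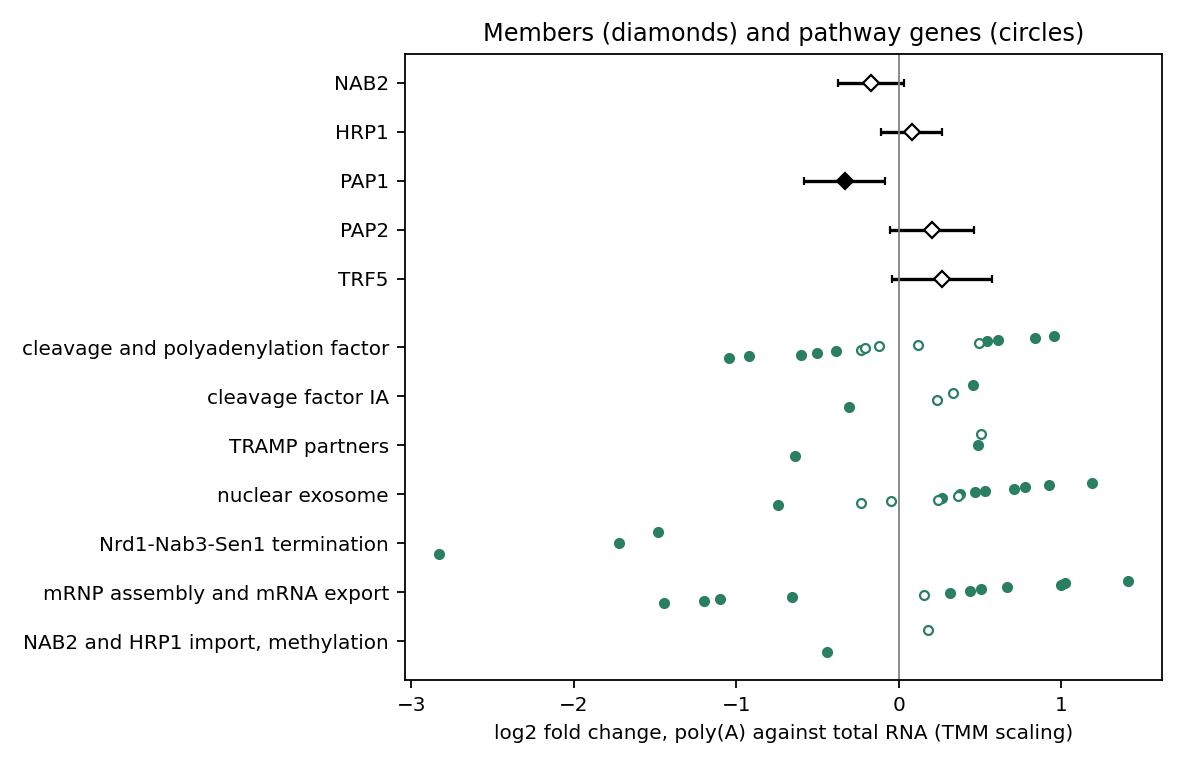
Log2 fold change of poly(A) against total RNA under TMM scaling for the 5 members (diamonds, bars are 95% intervals) and the 51 genes of 7 connected lists (circles). Filled symbols passed at an adjusted p under 0.05. The members lie between -0.33 and 0.27, the circles between -2.83 and 1.41, and scaling to the coding sum would shift all points up by about 0.32.

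The genes with the most similar values over the 4 libraries were found by the distance between log2 normalised CPM per kb, with 0.1 added, among 5772 tested reading frames. PAP1 lay nearest to PPS1 (0.136) and CRZ1 (0.147), PAP2 to GLE1 (0.130) and MSB4 (0.131), and TRF5 to MPP6 (0.142) and CDC20 (0.187). NAB2 lay nearest to HEM15 (0.126) and SCS7 (0.164), and HRP1 to ARD1 (0.0506) and ECM19 (0.105). The distance between NAB2 and HRP1 was 0.730 and that between PAP2 and TRF5 was 0.772, so paired members were not each other's nearest genes: 273 genes lay closer to HRP1 than NAB2 did, and 438 closer to TRF5 than PAP2 did. These distances rest on 4 libraries and mostly reflect a gene's level.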

How the data were processed

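RNA from 2 poly(A) and 2 total RNA samples was sequenced as 50-base single-end reads from libraries made with random primers, per the labels' protocols. The authors deposited raw read counts per annotated feature. Per the submitters' processing notes, FastQC 0.11.8, cutadapt 1.18, Bowtie2 2.3.4.3 and build R64 were used, with no role stated. How reads were counted, with or without strand and with what rule for several matches, was not given in the sources used here. The table had 5 empty lines, and each column matched 1 sample.

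The counts were tested with edgeR 4.0.16 (R 4.3.3): filterByExpr, TMM and the quasi-likelihood F test, with p-values adjusted over all 6945 features by Benjamini-Hochberg at 0.05. TMM gave factors of 0.162 and 0.156 in total RNA and 6.25 and 6.34 in poly(A) RNA. The SE is the fold change divided by the square root of F. Coding lengths and coordinates came from RefSeq R64, for 5866 of 6433 single nuclear reading frames. Counts were simulated for this comparison with 6852 features, 200 of them changed. On these the procedure called 87.9% of 2-fold, 62.6% of 1.5-fold and 0.12% of null features. All simulated libraries shared the same mean profile and a common dispersion, so the difference in rRNA content between the fractions was not simulated. These rates therefore do not cover the choice of scaling. In the deposited counts 62.2% of 6945 features were called, and the rates at that share were not tested. Sequence and length steps used Python 3.11.15, scipy 1.17.1, statsmodels 0.14.6 and Biopython 1.88.

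The members and lists were chosen with earlier results of these data known. Besides the members, the genes named were, in each list, the 2 farthest from a log2 fold change of 0 (1 for lists of 3 or fewer) and the 2 nearest to each member. HMT1, PCF11, NAB3 and SEN1 fall outside this rule and were named after their values were seen. Alternatives were the DESeq2 1.42.0 Wald test, other scalings and filters, a replicate block, a length correction and each library left out.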

Additional observations from a re-analysis of the deposited data

How the results depend on the processing

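Scaling changed the calls of 4 of the 5 members under the coding sum and most lower calls under library totals. Under library totals without TMM, PAP1, PAP2, TRF5, NAB2 and HRP1 had log2 fold changes of 4.98, 5.51, 5.58, 5.14 and 5.39, all 5 members were higher and 0 lower, 6860 of all features were higher and 75 lower, and the 51 pathway genes had 51 higher, 0 lower and a median of 5.55. Under the nuclear coding sum, PAP1 had -0.0097, PAP2 0.53, TRF5 0.59, NAB2 0.15 and HRP1 0.40, with 3 members higher and 0 lower and a pathway median of 0.56. With that scaling 67.1% of all calls were higher, against 49.9% under TMM and 98.9% under library totals. With the length trend removed, PAP1, PAP2, TRF5 and HRP1 had -0.15, 0.42, 0.57 and 0.19, and the pathway median was 0.21. It was 0.19 with at least 10 CPM in 2 libraries.

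With a replicate block, NAB2 passed at -0.18, so 2 members were lower. The labels do not tie replicate numbers across fractions, and deviations from the group means correlated at 0.144 over all 6945 features and at 0.259 over the 4265 with a mean total RNA count of at least 50, all 5 members among them, from a single pair of differences. With 1 library left out, the lone sample is assumed to vary like the others. PAP1 then ranged from -0.40 to -0.22, PAP2 from 0.18 to 0.29, TRF5 from 0.15 to 0.43, NAB2 from -0.30 to -0.00040 and HRP1 from 0.030 to 0.15. Members called ranged from 0 to 1 higher and 0 to 2 lower, and the pathway median from 0.19 to 0.28. DESeq2, TMM over coding features and no filter on low counts kept PAP1 as the 1 member called.

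Without length scaling, the total RNA percentiles were 61.5 for PAP1, 49.5 for PAP2, 43.7 for TRF5 and 81.2 for HRP1, and the poly(A) percentiles 57.4, 55.2, 49.2 and 86.1 for these genes and 88.0 for NAB2. Among genes with at least 10 counts in every library they were 48.8, 30.5, 20.5, 77.0 and 82.8 for PAP1, PAP2, TRF5, HRP1 and NAB2 in total RNA and 42.6, 39.4, 30.6, 77.0 and 80.0 in poly(A) RNA. TRF5 had the fewest counts in total RNA, which limits its precision most.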
